A study of Mus musculus with 6 samples.

Results

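Leukaemia cells outside division were 700 single cells in the lungs of mice with acute myeloid leukaemia (AML). They were chosen by UMI counts among cells with at least 500 detected genes and at most 15% mitochondrial UMIs, a UMI (unique molecular identifier) being a tag that counts 1 captured RNA molecule. A member had at least 3 UMIs of Trap1a and Trnp1 together, no UMI of Mki67 or Top2a, which are made by dividing cells, and at most 2 UMIs of the endothelial genes Cdh5, Pecam1 and Cldn5 together. They were 4.50% of the 15565 AML cells kept and came from a series of 24640 kept cells among 28516 barcodes.

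The series set non-haematopoietic (niche) cells of normal lungs beside those of lungs infiltrated by an AML with altered Trp53, given in its design as R172H on 1 allele and Δ on the other. It holds 3 AML and 3 Control libraries of droplet single-cell RNA-seq that counts the 3' ends of transcripts. Lungs were digested with Liberase and DNaseI, and per the labels the AML libraries were made from 80% sorted niche cells and 20% sorted GFP-positive leukaemia cells, so the share of leukaemia cells in a library was set by mixing. Strain, age, sex and whether the 3 libraries came from separate mice are not given in the sources used here. The p-values weigh the difference between classes against its variation from library to library, estimated with information from other genes. That variation may therefore be technical. The cells outside division were set beside 3 other classes of the same AML libraries. Dividing leukaemia cells passed the same gate with at least 1 UMI of Mki67 or Top2a and numbered 1856. Ptprc-positive cells (424) had a UMI of Ptprc, which encodes the white blood cell antigen CD45, no UMI of Trap1a or Trnp1 and at most 2 UMIs of the endothelial genes. Niche cells (11869) had no UMI of any of these 3 genes.

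Red blood cells, megakaryocytes and mast cells arise from progenitors that depend on the transcription factor GATA1. Klf1 and the receptor for erythropoietin, Epor, then mark the red cell path, and late red cells fill with haemoglobin. Mast cells and basophils store histamine and proteases such as carboxypeptidase A3 in granules and carry the high-affinity receptor for immunoglobulin E. Leukaemias called acute myeloid most often resemble granulocyte or monocyte precursors, which make Mpo, Elane and Csf1r, and a smaller group resembles red cell precursors.

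The promoters of an erythroid membrane gene, an erythroid transcription factor and the mast cell genes Cpa3 and Hdc are shown because their transcripts were found together in these cells, and GATA factors recognise such sites. Each run is the 250 bases before the start of the gene in RefSeq (GRCm38.p6, the assembly behind mm10), 5′ to 3′ on the strand of the gene, and thus lies upstream of the RefSeq transcript. Capitals mark a match on either strand to the letters AGATAA, the letters TGATAA, the letters AGATAG or the letters TGATAG, and no matches overlapped. The windows are chr17:40810899-40811148 (plus strand) for Rhag, chr8:84901732-84901981 (plus) for Klf1, chr3:20242182-20242431 (minus) for Cpa3 and chr2:126618679-126618928 (minus) for Hdc.
Rhag: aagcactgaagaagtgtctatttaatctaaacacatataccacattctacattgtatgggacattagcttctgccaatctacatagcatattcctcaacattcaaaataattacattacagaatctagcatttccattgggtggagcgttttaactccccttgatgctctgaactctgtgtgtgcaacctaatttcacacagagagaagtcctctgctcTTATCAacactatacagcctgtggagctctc
Klf1: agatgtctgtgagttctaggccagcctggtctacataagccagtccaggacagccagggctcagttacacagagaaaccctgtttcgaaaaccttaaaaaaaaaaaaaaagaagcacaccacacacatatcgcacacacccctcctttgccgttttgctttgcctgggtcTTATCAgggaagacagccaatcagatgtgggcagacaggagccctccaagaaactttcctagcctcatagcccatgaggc
Cpa3: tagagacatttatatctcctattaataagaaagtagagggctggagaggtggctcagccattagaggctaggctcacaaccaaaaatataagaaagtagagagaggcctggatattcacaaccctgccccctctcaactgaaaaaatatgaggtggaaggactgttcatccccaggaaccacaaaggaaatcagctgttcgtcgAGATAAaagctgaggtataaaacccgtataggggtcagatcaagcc
Hdc: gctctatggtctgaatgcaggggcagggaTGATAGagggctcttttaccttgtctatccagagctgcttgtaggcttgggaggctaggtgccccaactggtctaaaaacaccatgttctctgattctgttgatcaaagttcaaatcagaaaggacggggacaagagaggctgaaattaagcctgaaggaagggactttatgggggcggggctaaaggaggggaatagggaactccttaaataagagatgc
Each of the 4 windows held 1 match. Such a match was present in the same window of 7322 of 27025 genes (27.1%), so it describes these letters and does not show a site in use. Of the 7 genes looked up that had a window, Trnp1 also held 1 match, and Trap1a and Gata1 held 0.

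The values that chose the cells are given as a description. AML 1, AML 2 and AML 3 held 60, 297 and 343 cells outside division, which were 1.28% (95% exact binomial interval 0.982 to 1.65), 6.18% (5.51 to 6.89) and 5.64% (5.07 to 6.25) of their kept cells. AML 1 thus gave fewer than the other libraries. Such intervals cover counting error only. Trap1a encodes the P1A tumour rejection antigen and lies on the X chromosome (139333683 to 139338169, mm10). It had 567, 300.2 and 394 CPM (UMIs of the gene per 1000000 UMIs summed over the class) in cells outside division of AML 1, 2 and 3 and 466, 377 and 456 CPM in dividing cells. Trnp1, a nuclear protein gene on chromosome 4 (133491100 to 133498550), had 500.3, 1188 and 1135 CPM in cells outside division and 602, 1146 and 1042 CPM in dividing cells. For both genes the values of the classes overlapped.

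No cell outside division was found among the 9075 kept Control cells, and a count of 0 in that many leaves room for at most 0.0331%. The highest sum of Trap1a and Trnp1 in a kept Control cell was 2 UMIs, and 13, 20 and 24 Control cells had any. At the edge of the gate, 3, 20 and 14 AML cells had just 3 UMIs, with median totals of 3317, 3391 and 9268 UMIs, while 12, 19 and 13 cells just outside it had 2 UMIs, with medians of 9411, 2851 and 5530. A further 48, 62 and 69 cells reached 3 UMIs but exceeded the endothelial limit. The absence of Mki67 and Top2a depends on depth, because a shallow cell can miss both. Median totals per cell were 21754, 15574 and 17296 UMIs outside division, 31551, 27356 and 23530 in dividing cells, 3700, 2692 and 2416 in Ptprc-positive cells and 3954, 4090 and 3184 in niche cells.

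Transcripts of genes typical of other lung cells were present in small amounts, and whether they came from such cells was not tested. The 9 epithelial genes listed summed to 87.6, 127 and 495 CPM outside division and to 47985, 41098 and 58094 CPM in niche cells; the 10 endothelial genes, of which the rule limited 3, summed to 178, 201 and 181 CPM against 12723, 10598 and 10066 CPM. The 9 mesenchymal genes summed to 174, 212 and 338 CPM outside division, 13.8, 0 and 82.0 CPM in Ptprc-positive cells and 479, 399.6 and 524 CPM in niche cells. That sum was mostly Dcn, at 119, 143 and 201 CPM outside division, and Col1a2, at 54.5, 64.5 and 90.1 CPM, both genes of matrix proteins. Col1a1 and Lum, which define fibroblasts as well, had no UMI in cells outside division of AML 1 and AML 2, and 9.78 and 4.22 CPM in those of AML 3. Of the 700 cells, 426 had at least 3 mesenchymal or epithelial UMIs, a count to which Dcn and Col1a2 add, 24 (3.43%) had a Ptprc UMI and 13 were scored as doublets (barcodes that hold 2 cells). The part of other cells' RNA in the results was not tested; results that changed when those cells were left out are named.

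Cells outside division carried an erythroid programme, many genes of which were scarce in the niche cells around them. GATA1, the master factor of the red cell and mast cell lines, was read as 86.0, 52.8 and 70.7 CPM of Gata1 in cells outside division of AML 1, 2 and 3, against 1.83, 1.44 and 1.07 CPM in niche cells. Every library of the cells outside division lay far above every niche value. Gata1 was higher by 5.47 ± 0.21 on the log2 scale (estimate ± standard error, 3 libraries each, edgeR quasi-likelihood test, Benjamini-Hochberg adjusted p = 5.05e-14). Of 13 erythroid transcription factors 10 were higher and 2 lower, with a median log2 change of 2.01. Over all 13892 genes tested, 75.6% were called, 27.9% higher and 47.6% lower, and the median change was -0.41; 30.9% were higher and 46.0% lower with no overlap between the 3 values of each class. A call alone thus said little in this comparison of unlike cells.

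Klf1, the factor that turns on the red cell genes, had 94.7, 47.1 and 69.1 CPM in cells outside division and 2.53, 1.20 and 0.916 CPM in niche cells (log2 change 5.42 ± 0.22, edgeR adjusted p = 1.02e-13). AML 2 gave the lowest value of the 3 for both factors. Epor had 41.8, 30.1 and 34.9 CPM outside division, against 2.47, 2.17 and 0.763 CPM in niche cells (4.26 ± 0.29, edgeR adjusted p = 5.33e-09). Gfi1b, a repressor needed for red cells and platelets, was higher by 5.27 ± 0.41 (edgeR adjusted p = 5.08e-05).

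On the red cell surface, 12 of 16 tested genes were higher and 3 lower, with a median change of 3.59. The sum over the list went the other way. Without Rhag and Car1 it was 821, 607 and 659 CPM outside division and 3627, 3636 and 3133 CPM in niche cells, so some listed genes were abundant in niche cells. Icam4, the Landsteiner-Wiener blood group protein, had 275, 159 and 183 CPM in cells outside division and 6.08, 3.97 and 2.14 CPM in niche cells. Tspo2, which binds cholesterol in red cell precursors, had 226, 215 and 241 CPM against 4.09, 4.63 and 2.19 CPM. Both were apart in all 3 libraries and called, at 5.59 ± 0.20 for Icam4 (edgeR adjusted p = 1.91e-12) and 5.88 ± 0.22 for Tspo2 (2.30e-10). Ermap and Rhd, 2 further blood group genes, were higher by 5.30 ± 0.22 and 5.13 ± 0.24. Rhag and Car1, given as markers of these cells and so left untested, had 248, 271 and 337 CPM and 451, 315 and 499.7 CPM, against at most 6.92 and 6.19 CPM in a niche library.

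Haem enzymes were high, while several genes of the last steps of red cell maturation were low or at 0. Of 13 late erythroid genes tested 9 were higher and 2 lower (median 1.16). Of 19 genes for haem synthesis and iron, 14 were higher and 3 lower (median 1.28). Cpox, an enzyme of haem synthesis, had 182, 151 and 117 CPM outside division and 23.2, 18.5 and 19.9 CPM in niche cells (2.72 ± 0.15, edgeR adjusted p = 8.87e-12). Alas2, the red cell form of the first enzyme of that path, had only 4.73, 2.31 and 4.72 CPM, against 0.592, 0.722 and 0.305 CPM (2.72 ± 0.52, edgeR adjusted p = 1.20e-04). Slc4a1, the band 3 anion exchanger of mature red cells, had no UMI in the cells outside division of any library. Epb42, its membrane partner, had 3.95, 2.73 and 4.05 CPM.

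Haemoglobin was read mainly as the alpha chain gene Hba-a1, which had 2045, 882 and 889.6 CPM in cells outside division and 84.7, 83.5 and 39.3 CPM in niche cells (4.04 ± 0.26, edgeR adjusted p = 4.24e-06). AML 1 held the highest value. Adult beta chain transcripts were low: Hbb-bs had 103, 10.3 and 33.9 CPM outside division and 104, 25.5 and 2.34 CPM in niche cells. These ranges overlapped and the change was 0.55 ± 1.41 (edgeR adjusted p = 0.762); it was -0.69 without AML 3 and 1.76 after thinning each cell to 3000 UMIs, both past the threshold. Hba-a1 and Hba-a2, and Hbb-bs and Hbb-bt, are near copies, so the split of reads between the members of a pair is uncertain.

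**Figure D1:**
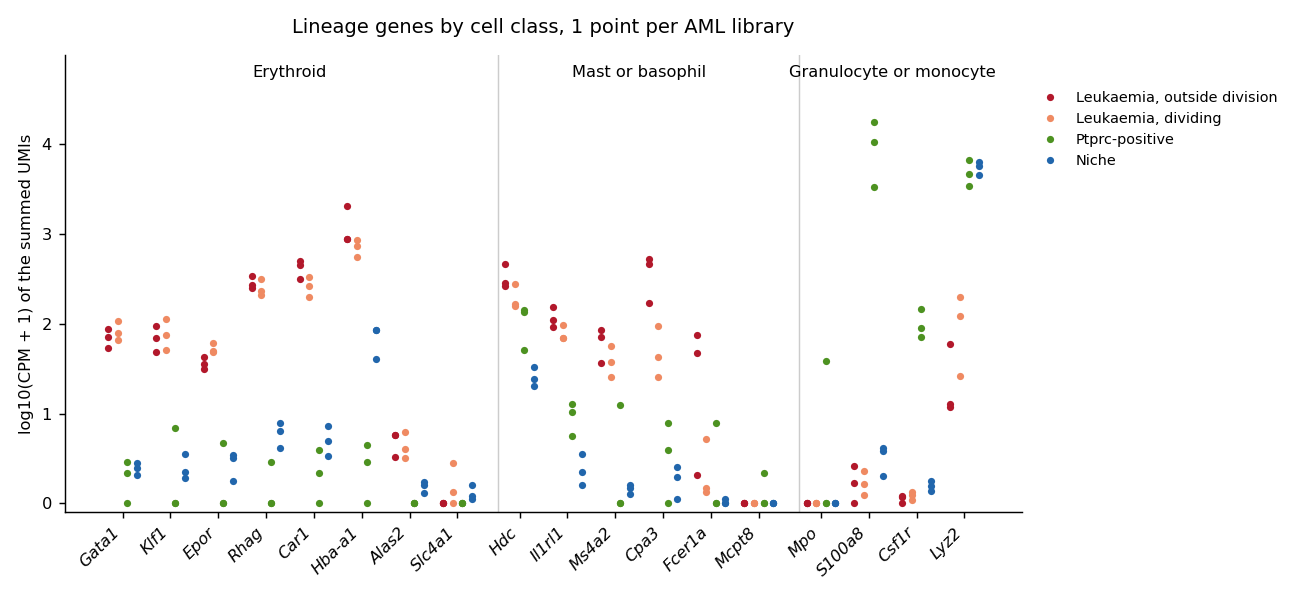
Levels of 18 erythroid, mast cell and granulocyte or monocyte genes as log10(CPM + 1) on the vertical axis, 1 point per AML library, for leukaemia cells outside division, dividing leukaemia cells, Ptprc-positive cells and niche cells. Gata1 lies between 52.8 and 86.0 CPM and Hdc between 266 and 465 CPM outside division, above every niche library, while Mpo is at 0 in both leukaemia classes.

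The same cells carried genes of mast cells and basophils. Of 12 such genes tested against niche cells, 9 were higher and 2 lower, with a median of 6.13. Genes near 0 in niche cells passed the filter on counts through the cells outside division, so this count is a description. Hdc, which makes histamine, had 287, 266 and 465 CPM in cells outside division and 32.2, 19.3 and 23.2 CPM in niche cells (3.64 ± 0.21, edgeR adjusted p = 1.71e-07). Il1rl1, the interleukin 33 receptor ST2, had 109.7, 91.9 and 152 CPM against 0.592, 2.53 and 1.22 CPM (6.24 ± 0.47, edgeR adjusted p = 2.67e-04). Ms4a2, the beta chain of the immunoglobulin E receptor, had 84.4, 35.3 and 70.0 CPM against 0.484, 0.602 and 0.254 CPM (6.99 ± 0.30, edgeR adjusted p = 1.76e-11). All 3 were apart from niche cells in every library.

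Carboxypeptidase A3, read as Cpa3, had 522, 169 and 467 CPM in cells outside division, against 0.108, 1.505 and 0.966 CPM in niche cells. It was higher by 8.59 ± 1.02 (edgeR adjusted p = 0.0131), and the adjusted p was 0.114 without AML 3 and 0.0569 without cells that held mesenchymal or epithelial UMIs. The alpha chain of the immunoglobulin E receptor, Fcer1a, had 74.2, 1.05 and 46.0 CPM and was thus nearly missing in AML 2; niche cells had 0, 0 and 0.102 CPM. Genes of the granules of mature cells were scarce. Mcpt8 of basophils and Mcpt4 and Tpsab1 of mast cells had no UMI, while Tpsb2 had 0, 0 and 0.337 CPM and Prss34 had 0, 0 and 0.169 CPM. Gata2, a factor of early progenitors and mast cells, was lower by 2.91 on the log2 scale (SE 0.22), with 33.9, 33.6 and 61.9 CPM outside division and 390.2, 252 and 283 CPM in niche cells, whose endothelial cells express it.

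Genes of granulocytes and monocytes were at or near 0. Of 16 neutrophil granule genes 7 had no UMI in any of the 700 cells, among them Mpo and Elane; the list summed to 4.73, 2.52 and 6.07 CPM, against 55790, 9518 and 31594 CPM in Ptprc-positive cells. The 16 monocyte or macrophage genes summed to 17.4, 14.5 and 64.3 CPM outside division and to 8384, 5463 and 6266 CPM in Ptprc-positive cells. Most of the sum outside division was Lyz2, at 11.8, 10.9 and 59.2 CPM, which niche cells held at 6351, 4609 and 5716 CPM. The label AML therefore stood on cells with erythroid and mast cell genes and without these granulocyte and monocyte genes.

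Early progenitor genes were mixed. Of 16 such genes tested against niche cells 4 were higher and 10 lower, where 27.9% of all genes were higher and 47.6% lower. The part that was higher was thus near that of all genes. Myb, a factor of dividing blood progenitors, had 316, 223 and 269 CPM in cells outside division and 12.1, 8.18 and 9.87 CPM in niche cells (4.63 ± 0.14, edgeR adjusted p = 3.71e-15). Kit, the stem cell factor receptor, had 140.5, 151 and 159.7 CPM against 262, 152 and 140.4 CPM, values that overlapped (-0.34 ± 0.19, edgeR adjusted p = 0.133). Its change was 0.20 without AML 1 and, past the threshold, -0.53 without AML 3 and -0.48 after thinning. Cd34 had 0, 1.68 and 2.70 CPM outside division, against 216, 394 and 216 CPM in niche cells, where vessels express it. Hoxa9 had no UMI and Flt3 had 0, 0.210 and 0 CPM. Spi1, the PU.1 factor of myeloid cells, had 56.8, 42.3 and 54.5 CPM outside division and 1.18, 0.963 and 0.560 CPM in niche cells (5.72 ± 0.24, edgeR adjusted p = 2.67e-13).

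Against the Ptprc-positive blood cells of the same lungs, 58.1% of 8503 genes were called, 29.2% higher and 28.9% lower, and 36.2% were higher and 29.0% lower with no overlap. Erythroid transcription factors were higher for 8 of 13 and lower for 2, and erythroid surface genes were higher for 9 of 11 and lower for 1. A further 7 of the 18 surface genes listed were not tested. Genes scarce in Ptprc-positive cells could pass the filter on counts only through the cells outside division. Gata1 had 86.0, 52.8 and 70.7 CPM outside division and 1.15, 0 and 1.86 CPM in Ptprc-positive cells (edgeR adjusted p = 1.14e-08). The mast cell list was less one-sided, with 6 of 10 higher and 2 lower: Hdc had 287, 266 and 465 CPM against 142, 50.4 and 136 CPM (1.49 ± 0.24, edgeR adjusted p = 1.49e-04), while Fcer1g, the shared gamma chain of Fc receptors, had 13.4, 15.3 and 35.4 CPM against 1404, 818 and 891 CPM (-5.60 ± 0.48, edgeR adjusted p = 0.00112). All 8 neutrophil, 13 monocyte, 12 lymphocyte and 7 MHC class II genes tested were lower, which is no result. These lists were low outside division, such as 3.95, 20.4 and 15.5 CPM summed over the lymphocyte genes. Their members thus passed the filter on counts mainly through the Ptprc-positive cells, which left little room for another call. Spi1 was lower than in these cells, at -2.64 ± 0.17 (Ptprc-positive cells 365, 269.7 and 263 CPM, edgeR adjusted p = 3.16e-10).

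CD45 itself was nearly absent, since Ptprc had 9.47, 3.78 and 4.22 CPM in cells outside division. Other genes of blood cells were present. Ptprcap, whose product binds CD45, had 482, 493 and 531 CPM outside division, 326, 160.1 and 183 CPM in Ptprc-positive cells and 5.06, 8.30 and 3.87 CPM in niche cells, and was apart from both. It was higher than in Ptprc-positive cells by 1.09 ± 0.23 (edgeR adjusted p = 0.00169). Rac2, a GTPase of blood cells, had 265, 231 and 267 CPM outside division and 4.68, 3.79 and 2.90 CPM in niche cells.

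Several of the genes with the highest change over niche cells belong to no blood lineage. The rule took the 20 largest changes among called genes with a mean of at least 100 CPM. Afp, the fetal serum protein, had 187, 176 and 142 CPM in cells outside division and 3.66, 3.37 and 1.02 CPM in niche cells (5.93 ± 0.25, edgeR adjusted p = 3.66e-09). Tnni3, the troponin I of heart muscle, had 469, 344 and 375 CPM against 7.75, 9.57 and 3.10 CPM (5.82 ± 0.39, edgeR adjusted p = 1.89e-04). Pax6, a factor of eye and brain, had 82.1, 109.7 and 131 CPM against 2.04, 3.25 and 0.712 CPM (5.68 ± 0.52, edgeR adjusted p = 0.00110). The values of cells outside division and niche cells were apart for all 3 genes.

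Sfrp4, which binds Wnt ligands, had 189, 77.8 and 96.1 CPM in cells outside division against 3.77, 1.93 and 1.17 CPM in niche cells. Slc7a8, an amino acid transporter, had 82.9, 101 and 145 CPM against 0.430, 1.02 and 0.865 CPM (7.01 ± 0.22, edgeR adjusted p = 4.43e-15). Mirg, a long noncoding RNA of the imprinted Dlk1-Dio3 region, had 186, 141 and 135 CPM against 1.78, 1.44 and 0.865 CPM in niche cells (6.72 ± 0.19, edgeR adjusted p = 1.74e-15) and no UMI in Ptprc-positive cells. The rule also named Cpa3, Il1rl1, Ptprcap, Rac2, Tspo2, Icam4, the tetraspanin Tspan32, Sdsl, Abcb4, Samsn1, Laptm5, Cdkn2a and the unnamed transcripts 1700006J14Rik and Gm6093.

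Trp53 carries the altered alleles of this leukaemia, which 3' end counts cannot tell apart. Trp53 had 184, 184 and 186 CPM in cells outside division and 43.5, 48.5 and 36.0 CPM in niche cells (4.01-fold, SE 0.13 on the log2 scale, edgeR adjusted p = 1.36e-10). Cdkn2a, which encodes the tumour suppressors p16 and p19ARF, had 369, 327 and 303 CPM against 9.36, 12.2 and 3.36 CPM (5.32 ± 0.40, edgeR adjusted p = 4.27e-04). Of 14 genes of p53 and its targets tested, 2 were higher and 9 lower, where 27.9% of all genes were higher and 47.6% lower.

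Cdkn1a, the p21 inhibitor of cyclin-dependent kinases and a p53 target, had 17.4, 31.7 and 32.2 CPM outside division, against 1281, 2054 and 1476 CPM in niche cells (-5.98 ± 0.18, edgeR adjusted p = 3.18e-15). Fas, a death receptor and p53 target, had 6.31, 6.52 and 3.88 CPM against 358, 433 and 329 CPM (-6.28 ± 0.19, edgeR adjusted p = 2.76e-15). Both targets were low in every library of the leukaemia cells, dividing cells included, where Cdkn1a had 15.1, 35.3 and 33.5 CPM. Niche cells differ in type from leukaemia cells, and the part of the Trp53 alleles in these differences cannot be told apart from that of cell type.

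Many single cells held both erythroid and mast cell genes, though the levels of the 2 sets were barely related across cells, as given below. Because cells differed in depth, each was thinned to 3000 UMIs, which 59, 267 and 331 cells outside division reached (657 of 700). An erythroid set of 7 genes (Gata1, Klf1, Epor, Ermap, Rhd, Icam4 and Tspo2) gave at least 1 UMI in 85.5% ± 10.1 of cells outside division (SD, n = 3 libraries), in 87.4% ± 3.53 of dividing cells, in 2.97% ± 0.796 of Ptprc-positive cells and in 1.90% ± 0.577 of niche cells. A mast cell set of 6 genes (Cpa3, Hdc, Ms4a2, Fcer1a, Il1rl1 and Cma1) gave 68.3% ± 12.7, 56.3% ± 9.96, 8.36% ± 2.44 and 3.40% ± 0.701 in the same order of classes. A neutrophil granule set of 8 genes was seen in 0.326% ± 0.305 of cells outside division, 0.575% ± 0.617 of dividing cells, 17.2% ± 2.06 of Ptprc-positive cells and 1.58% ± 0.928 of niche cells. The leukaemia shares of the erythroid and mast cell sets were far above the niche share, which serves as the background, and the granule share was below it. Unthinned, 95.9% ± 4.22 of cells outside division had an erythroid UMI and 87.2% ± 8.41 a mast cell UMI.

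**Figure D2:**
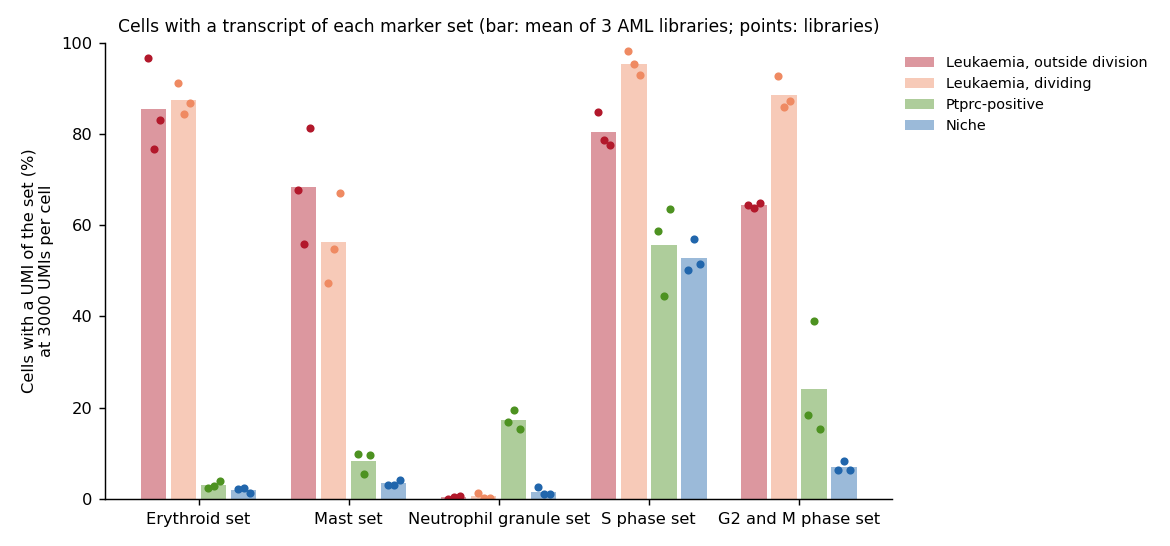
Percent of cells with at least 1 UMI of each gene set after thinning to 3000 UMIs per cell; bars are means of 3 AML libraries and points the libraries. In cells outside division the erythroid mean is 85.5%, the mast cell mean 68.3% and the granule mean 0.326%, and the S phase and G2 and M phase sets, which the rule bears on, average 80.3% and 64.3%. Cks2 gives much of the G2 and M phase share.

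Both sets were detected in 379 of the 657 thinned cells (57.7%), the erythroid set alone in 158 (24.0%), the mast cell set alone in 79 (12.02%) and neither in 41 (6.24%). Cells with both made up 66.1%, 43.4% and 67.7% of the cells outside division of AML 1, 2 and 3, so AML 2 had the lowest share. With 6000 UMIs, which 602 cells reached, both sets were seen in 80.2%. Within a library the summed UMIs of the 2 sets were barely related across cells, with Spearman rho of 0.02 over 59 cells, 0.05 over 267 and -0.11 over 331, cells that share a library and a depth of 3000 UMIs.

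**Figure D3:**
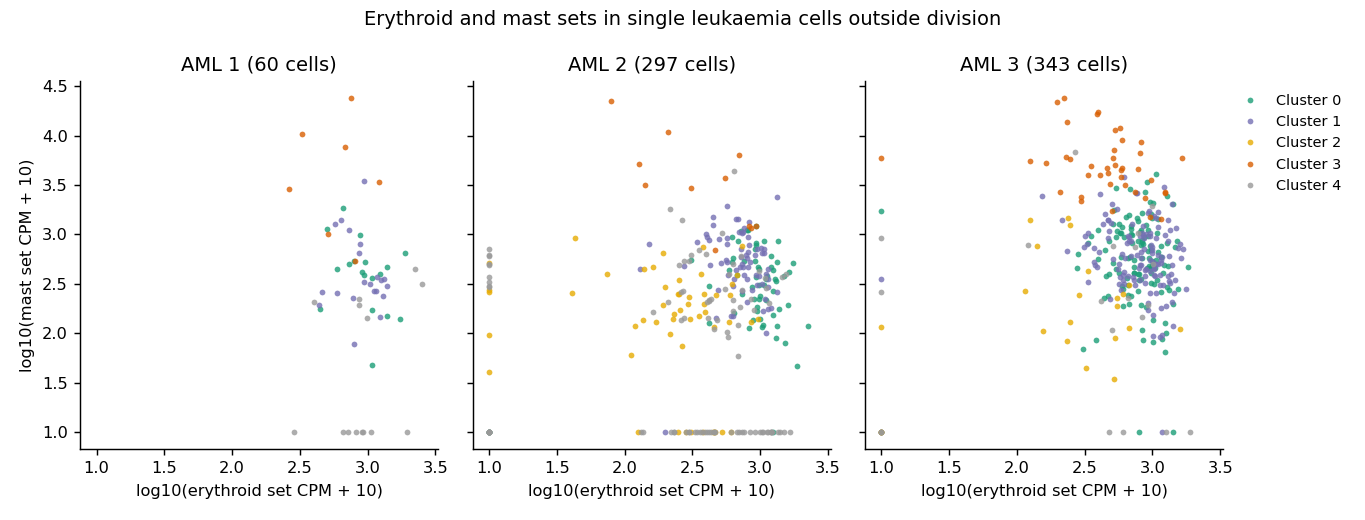
Level of the erythroid set (horizontal) and of the mast cell set (vertical) in each cell outside division, unthinned, as log10(CPM + 10), in 1 panel per AML library and coloured by cluster. Most of the 700 cells lie to the upper right, with both sets detected, and the cells of cluster 3 have the highest mast cell levels; cells on the lower or left edge have no UMI of a set.

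Set against dividing leukaemia cells of the same libraries, the cells outside division differed less, and the clearest rise outside the cell cycle was in mast cell genes. Several of these mast cell genes were highest in 1 cluster of 59 cells, described below. Of 11626 genes tested, 26.0% were called, 11.8% higher and 14.2% lower, with a median change of 0.00; 6.99% were higher and 19.4% lower with no overlap between the classes. All 18 S phase genes and 16 of 18 G2 and M phase genes were lower, with medians of -1.58 and -3.42, and most of the 10 lowest named genes (Hist1h3c, Hist1h1a, Hist1h2ap, Hist1h1b, Hist1h2ab, Hist1h2ae, Kif11, Rad51ap1, Cenpf and Aurkb) are histones or act in mitosis. That follows from the choice by Mki67 and Top2a and is no result. The cells were still well above niche cells in such genes. All 18 S phase and all 18 G2 and M phase genes were higher than in niche cells, with medians of 1.76 and 2.04. At 3000 UMIs a G2 and M phase UMI was found in 64.3% ± 0.644 of cells outside division and 7.04% ± 1.13 of niche cells. Much of that share outside division came from 1 gene, Cks2. Its mean per thinned cell was 0.915, 0.809 and 0.952 UMIs in AML 1, 2 and 3, against 1.78, 1.85 and 1.21 for all 18 genes. The name thus stands for cells without Mki67 and Top2a UMIs, not for cells without cell cycle transcripts. Without pairing the classes by library, 763 genes were called in place of 3026, and single genes that lose their call are named with that adjusted p. The count was 1671 with DESeq2, 971 with cells thinned to 3000 UMIs, 1131 without cells with mesenchymal or epithelial UMIs, 1658 without AML 2 and 1808 without AML 3. Epithelial genes summed to 87.6, 127 and 495 CPM outside division and 686, 198 and 1543 CPM in dividing cells, and Dcn had 119, 143 and 201 CPM against 61.8, 75.5 and 146 CPM.

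Of 11 mast cell and basophil genes tested, 7 were higher and none lower (median 1.06; 11.8% of all genes were higher), and without the pairing 2 of 11 were higher. Hdc had 287, 266 and 465 CPM in cells outside division and 158, 165 and 281 CPM in dividing cells, higher within each library though the ranges overlapped (0.83 ± 0.06, edgeR adjusted p = 4.82e-12; 0.120 unpaired). Il1rl1 had 109.7, 91.9 and 152 CPM against 68.9, 68.4 and 97.0 CPM (0.65 ± 0.07, edgeR adjusted p = 1.91e-08; 0.0597 unpaired). Cma1, mast cell chymase, had 7.89, 23.1 and 12.99 CPM against 0.723, 6.27 and 3.43 CPM (2.13 ± 0.22, edgeR adjusted p = 6.36e-09; 0.160 unpaired).

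Gzmb, granzyme B, had 17.4, 2.10 and 13.8 CPM outside division and 0.789, 0.803 and 1.18 CPM in dividing cells (3.32 ± 0.45, edgeR adjusted p = 4.15e-05, at most 0.0107 under every alternative run). Cd200r3, an activating receptor of mast cells and basophils, had 10.3, 19.1 and 15.2 CPM against 5.39, 8.03 and 5.79 CPM (1.34 ± 0.17, edgeR adjusted p = 3.15e-07, at most 0.00898). These 2 genes were apart in every library, but Gzmb came from few cells: it had 112 CPM in 1 cluster of 59 cells and 1.89 CPM in the other cells outside division. The same cluster had Hdc at 1112, Il1rl1 at 515 and Cd200r3 at 81.9 CPM. The other clusters had 105 to 389, 30.2 to 120 and 6.83 to 14.9 CPM of these genes. Their class levels thus hold a large part from few cells.

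Cpa3 had 522, 169 and 467 CPM outside division, against 41.4, 24.8 and 94.2 CPM in dividing cells, values that did not overlap. Its change of 2.93 ± 0.41 missed the threshold (edgeR adjusted p = 0.0544). It passed without AML 1 (2.23e-04), without AML 3 (0.0180), with DESeq2 (1.02e-12), with doublets removed (0.0461), without cells with niche-only UMIs (0.0458) and thinned (1.56e-19). Fcer1a had 74.2, 1.05 and 46.0 CPM against 0.460, 0.351 and 4.24 CPM and also missed it (4.42 ± 1.12, edgeR adjusted p = 0.142), but passed with DESeq2 (0.0125) and without AML 1 (4.92e-07). The beta chain Ms4a2 was called at 0.68 ± 0.17 (edgeR adjusted p = 0.0246; 0.352 unpaired and 0.149 without cells under 10000 UMIs).

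**Figure D4:**
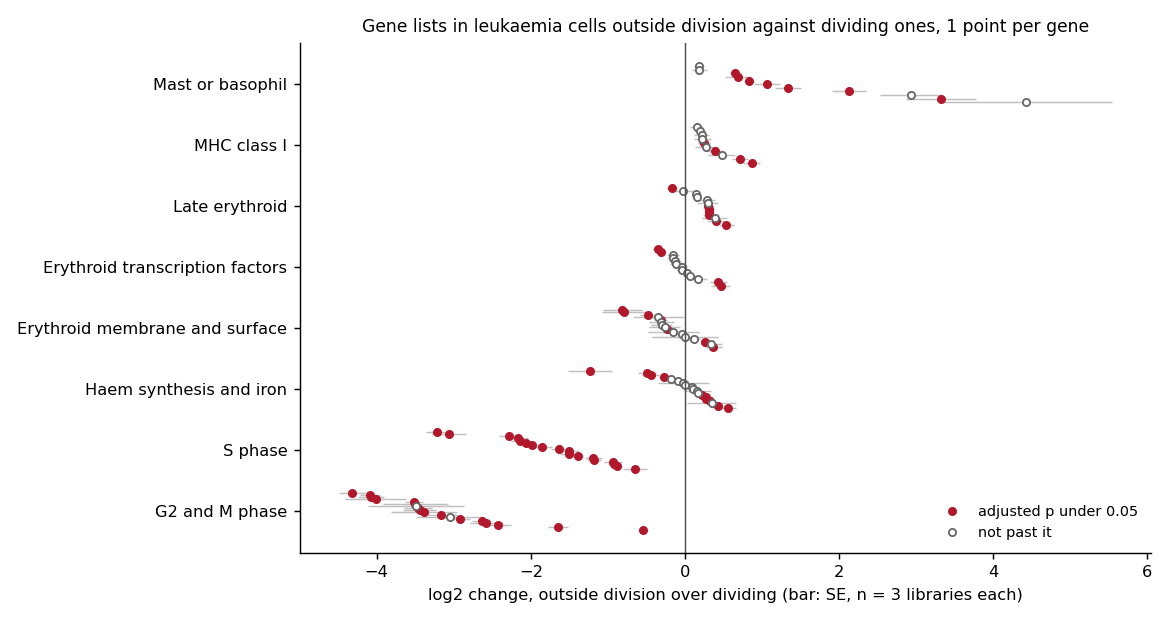
Log2 change of cells outside division over dividing leukaemia cells, 1 point per tested gene of 8 lists, with bars of 1 SE (n = 3 libraries each); filled points have an edgeR adjusted p under 0.05. Of 11 mast cell or basophil genes 7 are filled and to the right of 0, while erythroid transcription factors lie on both sides and all S phase genes lie to the left.

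Erythroid genes moved less and in both directions. Gata1 had 86.0, 52.8 and 70.7 CPM outside division and 105, 65.5 and 78.0 CPM in dividing cells (-0.16 ± 0.08, edgeR adjusted p = 0.132; 0.0268 with no filter on low counts), and Klf1 changed by -0.05 ± 0.08 (0.732). Epor fell, with 41.8, 30.1 and 34.9 CPM against 60.4, 47.7 and 48.8 CPM (-0.48 ± 0.10, edgeR adjusted p = 2.29e-04; 0.0691 unpaired and 0.485 thinned). Gfi1b was also lower (-0.35 ± 0.08, edgeR adjusted p = 0.00103; 0.0945 unpaired, 0.0552 without AML 2 and 0.565 thinned). In the 2 lists, 2 of 13 transcription factors were higher and 2 lower, and 2 of 16 surface genes higher and 5 lower. Over all genes 11.8% were higher and 14.2% lower, so the transcription factor counts were near those shares.

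Late erythroid genes were higher for 6 of 13 and lower for 1 (median 0.30), but for 0 unpaired, for 3 without AML 2, and for 1 each when cells were thinned or those with mesenchymal or epithelial UMIs left out. Tspo2 changed by 0.31 ± 0.07 (edgeR adjusted p = 5.97e-04, and 0.180 unpaired) and Icam4 by 0.26 ± 0.07 (0.00489, and 0.446 unpaired). Without cells with mesenchymal or epithelial UMIs both lost the call, with edgeR adjusted p of 0.911 for Tspo2 and 0.195 for Icam4. Thinning gave 0.360 and 0.373. Tspo2 also lost it without AML 2 (0.0785), and Icam4 without AML 1 (0.0769) and with no filter on low counts (0.0682). Hba-a1 had 2045, 882 and 889.6 CPM against 849.5, 563 and 744 CPM, and its change of 0.80 ± 0.30 was not called (edgeR adjusted p = 0.242) although the values were apart. It passed without AML 1 (0.0236), with DESeq2 (0.0401), without cells with mesenchymal or epithelial UMIs (0.0431) and thinned (9.63e-07). None of the 4 haemoglobin genes tested was called in the paired edgeR fit on all cells.

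Among the genes named by size, Mxd4, a MAX partner that opposes Myc, had 76.5, 72.3 and 88.4 CPM in cells outside division and 29.2, 38.4 and 46.9 CPM in dividing cells (1.09 ± 0.09, edgeR adjusted p = 1.18e-10, at most 0.00198 under every alternative run). Spi1 had 56.8, 42.3 and 54.5 CPM against 21.3, 25.6 and 34.7 CPM (0.92 ± 0.12, edgeR adjusted p = 2.03e-05, at most 0.00973). Uba7, which activates the ubiquitin-like protein ISG15, had 58.4, 58.4 and 67.1 CPM against 26.5, 33.9 and 36.8 CPM (0.97 ± 0.09, edgeR adjusted p = 1.35e-09, at most 0.00214). Mirg had 186, 141 and 135 CPM against 89.8, 91.7 and 79.3 CPM (0.87 ± 0.07, edgeR adjusted p = 1.39e-10, at most 0.00293). For these 4 genes the classes did not overlap.

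Slc18a2, which loads histamine and other amines into vesicles, had 67.1, 40.6 and 94.6 CPM outside division and 21.3, 23.9 and 50.8 CPM in dividing cells (1.09 ± 0.14, edgeR adjusted p = 3.65e-04, and 0.194 unpaired). Slc18a2 was at 237 CPM in the cluster of 59 cells and at 27.3 to 64.2 CPM in the other clusters. Serpinb1a, an inhibitor of granule proteases, had 922, 312 and 904 CPM against 317, 151 and 410.2 CPM (1.32 ± 0.09, edgeR adjusted p = 7.32e-07; 0.224 unpaired and 0.291 without cells with mesenchymal or epithelial UMIs). The kinase gene Sgk1 changed by 1.11 ± 0.15 (edgeR adjusted p = 0.00887; 0.209 unpaired and 0.0582 with doublets removed), Lgals3 by 1.04 ± 0.16 (0.00778; 0.0929 unpaired and 0.0790 with a gate of 5 UMIs) and Rgs2 by 0.89 ± 0.07 (1.65e-11; 0.204 unpaired). H2-T23, a non-classical MHC class I gene, changed by 0.86 ± 0.11 (edgeR adjusted p = 4.16e-04, and at most 0.0457 under every alternative run). Without cells with mesenchymal or epithelial UMIs, the adjusted p was 0.294 for Sgk1 and 0.152 for Lgals3. When cells with mesenchymal or epithelial UMIs were left out, Serpinb1a, Slc18a2, Sgk1 and Lgals3 lost their calls, with adjusted p between 0.152 and 0.294.

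Csf2rb, the beta chain of the receptors for interleukin 3 and GM-CSF, had 21.3, 14.3 and 18.0 CPM in cells outside division and 1.78, 3.41 and 3.801 CPM in dividing cells (2.54 ± 0.24, edgeR adjusted p = 2.61e-08, at most 0.0332). Ptprc-positive cells had 63.3, 101 and 72.7 CPM. Among cells outside division Csf2rb was at 101 CPM in the cluster of 59 cells and at 5.20 to 17.2 CPM in the other clusters. Of 13 cytokine receptor genes tested against dividing cells 4 were higher and 1 lower. Of 10 MHC class I genes 4 were higher and none lower, but 1 was higher without AML 2. Over all genes in this comparison 11.8% were higher and 14.2% lower. Trp53 had 184, 184 and 186 CPM against 227, 216 and 197 CPM (-0.11 ± 0.06, edgeR adjusted p = 0.208; 0.0207 with no filter on low counts), and Cdkn2a had 369, 327 and 303 CPM against 275, 273 and 276 CPM (0.34 ± 0.07, edgeR adjusted p = 1.49e-04; 0.115 unpaired).

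The spread between cells was described in the thinned cells. Over 3250 genes with a mean of at least 0.1 UMI per cell in each library, the ratio of variance to mean, which is 1 for counting noise alone, had medians of 1.09, 1.11 and 1.07 in AML 1, 2 and 3, and 74 genes exceeded 2 in all 3. Genes were ordered by the median of their ranks in the 3 libraries. Hba-a1 came first, with ratios of 24.7, 26.6 and 16.9, although it was 4th in AML 1. Cpa3, with 32.2, 15.6 and 16.7, and Malat1, with 30.6, 24.4 and 14.1, shared the next place. Single libraries held higher ratios, such as 109 for Gm42418 in AML 1 and 117 for Sftpc in AML 3. Sftpc had 1.36 in AML 1 and 1.30 in AML 2. The other names among the first 15 were Gm42418, S100a6, Serpinb1a, Vim, Mt1, Rpl32, Tmsb4x, Crip1, B2m, Sgk1, Fth1 and S100a10.

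Cpa3 was concentrated in few cells. Before thinning, 23, 89 and 192 cells outside division had a Cpa3 UMI, the highest cell held 385, 215 and 330 UMIs, and the top 10% of cells held 92.7%, 86.3% and 72.9% of them. After thinning, at least 5 Cpa3 UMIs were found in 8.47%, 2.62% and 10.9% of cells outside division, against 1.07%, 0% and 1.05% of dividing cells. Hba-a1 was spread more widely, with 90.0%, 68.0% and 76.1% of cells outside division holding a UMI and the top 10% holding 57.4%, 74.7% and 68.0% of the total.

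Clustering of the 700 cells gave 5 clusters, described here without tests since the genes that define a cluster were used to form it. Cluster 3 (59 cells, 7, 11 and 41 from AML 1, 2 and 3) held 71.3% of all Cpa3 UMIs, at 3638 CPM against 109 CPM in the rest. It also had Fcer1a at 377 CPM against 5.30 CPM, and Hdc at 1112, Il1rl1 at 515, Kit at 439.8, Cma1 at 111 and Gzmb at 112 CPM, and its Serpinb1a level of 2238 CPM was the highest of the 5 clusters. Its Gata1 level of 72.3 CPM lay within the range of the other clusters (40.0 to 73.1), and Klf1 was at 39.8 CPM. Of the 5 clusters it had the lowest Epor, at 12.1 CPM.

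Cluster 0 (208 cells) had Slc40a1, the iron exporter ferroportin, at 65.5 CPM against 29.1 CPM in the rest, with Bcl11a at 135 against 65.8 and Hba-a1 at 216 CPM, the lowest of the clusters. Cluster 1 (225 cells) carried Mgp at 275 against 0.790 CPM, Serpinb1a at 1259 against 332 (below cluster 3) and Vim at 3160 against 944. It also had Sftpc, an alveolar surfactant gene, at 462 against 97.6 CPM and held 11 of the 13 scored doublets. Cluster 2 (75 cells, 0, 53 and 22 by library) had Cited1 at 226 against 2.11 CPM and Fabp5 at 948 against 47.9, with Car1 at 78.6 and Cpa3 at 11.7 CPM, the lowest of the 5 for both.

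Cluster 4 (133 cells, 99 of them from AML 2) stood apart in depth, with a median of 5028 UMIs per cell against 12608 to 20942 in the others. Ribosomal genes made up 43.6% of its UMIs against 28.3% to 34.2%. Its leading genes were Hist1h2ap, Tk1, Hist1h2ae, Pclaf, Ube2c and Birc5, which are made in S phase and mitosis, although no cell held Mki67 or Top2a. Such transcripts were not particular to cluster 4. Cluster 2, with a median of 19794 UMIs, had Birc5 at 101 CPM against 77.1 in cluster 4 and Cdc20 at 76.7 against 48.8. Other genes were higher in cluster 4, such as Ube2c (60.5 against 50.7 CPM in cluster 2) and Pcna (182 against 148). The comparison with dividing cells without leukaemia cells under 10000 UMIs called 2893 genes in place of 3026.

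**Figure D5:**
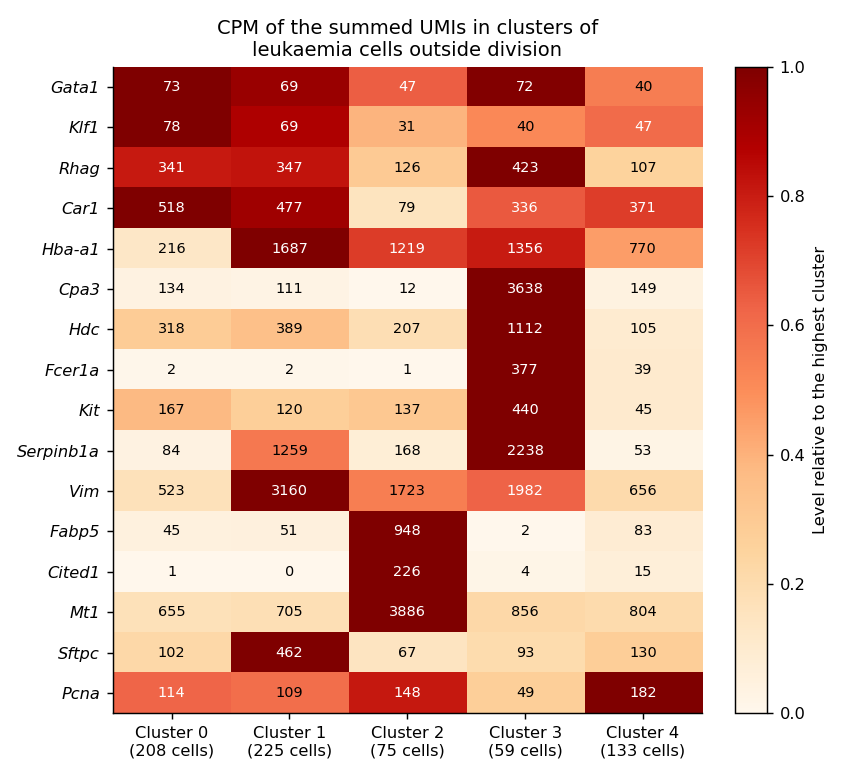
CPM of 16 genes in the 5 clusters of cells outside division, printed in each field, with the shade giving the level relative to the highest cluster. Cluster 3 stands out for Cpa3 (3638) and Fcer1a (377), while Gata1 stays between 40.0 and 73.1 in all 5.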

How the data were processed

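Each of the 6 libraries was deposited as raw counts, that is UMIs per gene and barcode over 32285 features, which the authors made with Cell Ranger on mm10. Per the file headers the version was 6.0.1, and per the submitters' processing notes it was 7.0.0. The libraries used the 10x Single Cell 3' v3.1 chemistry, per the labels' protocols. Total UMIs were 39919902, 45953347 and 46018541 in the AML libraries, and the cells outside division contributed 1267220, 4756500 and 5929630. Classes were made from the gate genes of the same cells. The members and gene lists were chosen with earlier results of these data known.

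UMIs were summed per library and class. The test was the quasi-likelihood fit of edgeR 4.0.16 (robust, TMM scaling, its filter on low counts, library as a block, R 4.3.3), with Benjamini-Hochberg adjustment over all genes tested and a threshold of 0.05. Library was a block because the classes compared came from the same suspension; correlations of their deviations were 0.134 to 0.246 with niche cells, 0.329 to 0.542 with dividing cells and 0.0410 to 0.118 with Ptprc-positive cells. Left out of tests were 10 genes, the 8 used by the rule or the classes and Rhag and Car1. Levels (CPM) are plain counts per 1000000 UMIs of the class sum, whereas log2 changes follow TMM scaling. The standard error of a log2 change was its absolute value over the square root of the F statistic of the fit. Named genes were list members and, by rule, the 20 largest changes over niche cells (mean of 100 CPM or more) and the 10 largest each way in the other comparisons (50 CPM or more), called and with 1 direction in all 3 libraries. On simulated counts with known changes, 98.0%, 99.0% and 100% of 4-fold changes were recovered for niche, dividing and Ptprc-positive comparisons, and 71.7%, 85.7% and 62.1% of 2-fold changes. Of the genes called there, 4.57%, 1.09% and 3.97% were unchanged ones. The simulation gave every gene the same spread and no library effect, and changed only 181 to 197 genes. It therefore does not measure recovery for the more variable genes of these data.

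Scrublet gave each barcode a doublet score within its library; the doublets stayed in, and removing them was an alternative. Clusters used scanpy 1.11.5 (2000 variable genes, 20 components, 15 neighbours, Leiden resolution 0.5). Kept libraries shared 0 to 20 barcodes and no member. A chi-square over genes between the UMI sums of 2 libraries of the class gave 4.88 to 7.38 per degree of freedom. It takes each UMI as independent, but UMIs of a gene can pile up in few cells. It therefore cannot show that the libraries differ. Other alternatives were DESeq2 1.42.0, other filters on cells and genes, thinning, and each library left out; the fits without leukaemia cells under 10000 UMIs, and without those holding at least 2 UMIs of 8 markers specific to niche cells, were chosen after seeing the data. Ahsp and Mx1 had no feature and Aldoa had 2, so these list genes were not used. Results of some genes are not reported here.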

Additional observations from a re-analysis of the deposited data

How the results depend on the processing

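Counts of called genes depended most on the processing in the comparison with dividing cells, where 3026 were called. DESeq2 called 1671, the fit with no replicate block (classes not paired by library) 763, the fit without cells that held mesenchymal or epithelial UMIs 1131, and thinning to 3000 UMIs 971; leaving out 1 library gave 1658 (without AML 2), 1808 (without AML 3) and 2624. The share of called genes that were higher was 45.3%, but 28.8% with no filter on low counts and 21.6% with no block. Against niche cells, 10496 were called and 10170 with no block, and leaving out a library gave 9248 to 10276. Against Ptprc-positive cells, 4940 were called, 4969 with no block, 2344 after thinning and 4254 to 4902 without 1 library. Where a library was left out, the fit rested on the others alone. Scaling by DESeq2 size factors gave a median change over niche cells of -0.36 in place of -0.41. Of 99 gene results 91 were called; 18 of these lost the call under at least 1 alternative, 16 of them with no block, and no called result changed sign. Among results not called, Hbb-bs over niche cells turned to -0.15 with no block and -0.69 without AML 3 (1.64 without AML 2), Kit over niche cells to 0.20 without AML 1 (-0.53 without AML 3) and 0.0101 without cells with mesenchymal or epithelial UMIs, and Klf1 over dividing cells to 0.0787 after thinning. The share of cells outside division was 5.43% in AML 2 with a gate of 5 UMIs and 6.602% in AML 3 among cells with 1000 genes or more. The share with an erythroid UMI was 95.9% unthinned, and that with a mast cell UMI was 87.2% unthinned and 84.3% at 6000 UMIs. The cause of these changes was not tested, beyond the fewer cells, genes or UMIs that some alternatives hold by construction. Depth limits the class itself, since cells with few UMIs can lack Mki67 and Top2a, and AML 1 gave only 60 cells.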

Other observations

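Other gene lists were also set against niche cells. Of 16 glycolysis and hypoxia genes tested 10 were higher and 4 lower, with a median change of 1.11, where 27.9% of all genes were higher. Eno1, an enzyme of glycolysis, had 386, 363 and 277 CPM in cells outside division of AML 1, 2 and 3, against 41.9, 34.5 and 31.9 CPM in niche cells (3.12 ± 0.13, edgeR adjusted p = 2.96e-13). The hypoxia target Vegfa, a growth factor for vessels, went the other way, with 2.37, 2.73 and 2.87 CPM against 206, 99.96 and 109 CPM (-5.54 ± 0.21, edgeR adjusted p = 5.64e-14). Reads of Eno1 may be split with near copies, which leaves its level uncertain.

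Over all genes tested against niche cells 27.9% were higher and 47.6% lower, so the counts given next say little alone. Among 16 adhesion and homing receptors 7 were higher and 6 lower. Itga4, the alpha 4 integrin that binds VCAM1, had 177, 193 and 182 CPM in cells outside division and 7.86, 9.57 and 7.73 CPM in niche cells (4.33 ± 0.15, edgeR adjusted p = 1.10e-14), and 519, 483 and 444 CPM in Ptprc-positive cells. Its partner Itgb7 had 50.5, 47.7 and 47.7 CPM outside division and 0.753, 1.81 and 0.712 CPM in niche cells (5.38 ± 0.27, edgeR adjusted p = 2.86e-11). Of 17 type I interferon response genes 1 was higher and 14 lower. MHC class I genes were higher for 1 of 11 and lower for 7; H2-K1 had 299, 216 and 219 CPM outside division and 1649, 900.2 and 779 CPM in niche cells (-2.23 ± 0.15, edgeR adjusted p = 1.31e-10). Of the 16 germline genes listed, 12 had no UMI in cells outside division, although Trap1a itself is known from testis and tumours.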
